A study of Homo sapiens with 9 samples.

Results

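Complement is a cascade of blood and tissue-fluid proteins that tags and lyses cells, and cells both make some of its proteins and protect themselves from it with membrane regulators. The 9 genes described here are the C1 proteases C1R and C1S, the central component C3, the alternative-pathway protease CFB, the soluble inhibitors SERPING1 and CFI, and the membrane regulators CD46, CD55 and CD59. The list was chosen by the measured counts of C1S, which differed strongly and in opposite directions between knockdown and control in the 2 count tables of this study, 1 for each cell line. The values of C1S are therefore given as a description with no test. All 9 were found among the 52165 genes listed in both tables.

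Polyadenylated RNA was sequenced from Kyse150 and TE11, 2 cell lines of human esophageal squamous cell carcinoma, after lentiviral delivery of an shRNA against KDM2A (shKDM2A) or of a control shRNA (shNC). KDM2A removes methyl groups from lysine 36 of histone H3 and binds unmethylated CG dinucleotides. The groups were 2 Kyse150 shKDM2A libraries, 2 Kyse150 shNC libraries, 2 libraries labelled TE11 shKDM2A and 3 TE11 shNC libraries. The labels name a single shRNA against KDM2A and do not say whether cells were cloned or pooled. They call the replicates independent without naming what separates them, so a p-value speaks only of the spread seen among libraries.

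Each Kyse150 library held 6052883 to 7167055 gene counts and each TE11 library 8457767 to 12073098. Levels are in CPM, counts brought to a common library size over all 9 libraries. KDM2A itself had 104 and 102 CPM in Kyse150 shKDM2A libraries, against 169 and 171 CPM in Kyse150 shNC libraries (log2 fold change -0.71, SE 0.07; edgeR adjusted p = 3.89e-09). It had 132 and 146 CPM in the libraries labelled TE11 shKDM2A, against 124, 121 and 124 CPM in TE11 shNC libraries (log2 fold change 0.16, SE 0.07; edgeR adjusted p = 0.0335), a call lost in DESeq2 and without shKDM2A replicate 2, shNC replicate 2 or shNC replicate 3 (adjusted p of 0.0739, 0.398, 0.0772 and 0.0969). KDM2A is thus not lower in those 2 libraries, against their label. Across 12085 protein-coding genes, which are not independent replicates, their log2(CPM + 1) values correlated at 0.923 to 0.928 with Kyse150 shNC libraries and at 0.781 to 0.783 with TE11 shNC libraries. Each direction for TE11 is between the libraries as labelled. Squamous epithelial markers such as KRT5 and TP63 were present, with all 10 of the list above 0 in each group.

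In the classical pathway C1R cleaves C1S, and C1S then cleaves C4 and C2 to build the enzyme that splits C3. The alternative pathway amplifies that step with CFB. SERPING1, the C1 inhibitor, inactivates C1R and C1S, CFI cuts the active fragments of C3 and C4, CD46 is the membrane cofactor for CFI, CD55 takes apart the enzymes that split C3, and CD59 blocks the membrane attack complex. Most circulating complement comes from the liver, and epithelial cells also make several of these proteins.

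The 250 bases before annotated starts are shown for the protease gene C1R, which has 2 RefSeq starts and moved with C1S, for CFB, whose window held matches to 3 of the 4 motifs searched, and for CD46 and CD59, regulators whose transcripts moved differently from each other (the first of 2 starts for CD46 and of 4 for CD59). The sequences are from RefSeq on GRCh38.p14, 5′ to 3′ on the strand of the gene. Of the 9 genes, 6 had an entry, while C1S, C3 and SERPING1 are named only. Capitals mark matches, on either strand, to GAS (TTCNNNGAA), ISRE (GAAA and GAAA with any 2 bases between), the kappa-B consensus or C/EBP (TTGCNNAA).
C1R, first start, chr12:7092446-7092695, reverse strand: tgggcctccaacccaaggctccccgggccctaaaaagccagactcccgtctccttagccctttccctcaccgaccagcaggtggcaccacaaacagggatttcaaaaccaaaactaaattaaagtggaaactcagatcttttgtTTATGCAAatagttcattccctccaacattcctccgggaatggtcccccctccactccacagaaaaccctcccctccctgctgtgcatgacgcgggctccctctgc
C1R, second start, chr12:7091894-7092143, reverse strand: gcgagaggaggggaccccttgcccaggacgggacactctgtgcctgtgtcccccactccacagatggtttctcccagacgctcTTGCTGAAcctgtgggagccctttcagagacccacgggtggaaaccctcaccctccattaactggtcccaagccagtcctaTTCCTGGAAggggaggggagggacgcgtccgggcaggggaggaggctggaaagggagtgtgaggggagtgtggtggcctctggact
CFB, chr6:31945845-31946094, forward strand: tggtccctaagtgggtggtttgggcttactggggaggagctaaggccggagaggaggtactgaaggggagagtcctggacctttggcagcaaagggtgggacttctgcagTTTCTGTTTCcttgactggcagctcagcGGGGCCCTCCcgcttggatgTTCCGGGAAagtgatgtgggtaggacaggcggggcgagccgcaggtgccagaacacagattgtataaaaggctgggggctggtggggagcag
CD46, chr1:207751788-207752037, forward strand: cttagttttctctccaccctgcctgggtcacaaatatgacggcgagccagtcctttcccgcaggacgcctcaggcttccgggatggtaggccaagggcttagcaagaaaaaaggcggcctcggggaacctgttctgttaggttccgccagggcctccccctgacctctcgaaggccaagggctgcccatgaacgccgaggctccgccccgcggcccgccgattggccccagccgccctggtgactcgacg
CD59, chr11:33736480-33736729, reverse strand: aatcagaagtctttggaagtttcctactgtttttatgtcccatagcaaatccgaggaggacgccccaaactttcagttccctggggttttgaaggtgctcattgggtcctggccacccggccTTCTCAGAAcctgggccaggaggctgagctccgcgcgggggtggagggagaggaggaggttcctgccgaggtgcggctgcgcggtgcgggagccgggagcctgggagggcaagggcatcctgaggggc

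The first C1R window held 1 C/EBP match and the second held a C/EBP and a GAS match, which do not overlap. CFB held an ISRE, a kappa-B and a GAS match, CD59 a GAS match and CD46 none. Over 34943 such windows of all RefSeq promoters, 6.56% held a GAS match, 3.02% an ISRE match, 9.95% a kappa-B match and 9.06% a C/EBP match. The windows held 6 and 7 CG dinucleotides for the C1R starts, 7 for CFB, 19 for CD46 and 12 for CD59, beside a median of 11 over all windows. A match is only a description of these letters.

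The C1 proteases and C3 differed most, rising in Kyse150 with KDM2A knocked down and lying far below the controls in the libraries labelled TE11 shKDM2A. C1S (ENSG00000182326) is annotated at 6988259 to 7071032 of chromosome 12, forward strand (positions of all members are those of GENCODE 29 on GRCh38). C1S had 84 and 97 counts in Kyse150 shKDM2A libraries, against 7 and 8 counts in Kyse150 shNC libraries. Its level was 13.7 ± 2.18 CPM in Kyse150 shKDM2A and 1.06 ± 0.121 CPM in Kyse150 shNC (SD, n = 2 each), a 12.9-fold difference (log2 3.68, SE 0.31). In TE11, C1S had 8 and 10 counts in the libraries labelled shKDM2A, against 2469, 2399 and 2437 counts in shNC libraries. Its level there was 1.07 ± 0.131 CPM in the labelled shKDM2A libraries (SD, n = 2) and 218 ± 8.06 CPM in shNC libraries (SD, n = 3), or 0.00492 of control (log2 -7.67, SE 0.15). The groups did not overlap in either line. Fewer cells that make a transcript and less of it per cell cannot be told apart in these bulk libraries. Of C1S exon bases 3.54% are shared with EMG1, a gene of ribosome assembly, so few of its reads depend on how overlaps were counted.

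C1R (ENSG00000159403), the protease that activates C1S, lies beside it on chromosome 12 from 7080199 to 7092607 on the reverse strand, so the ends of the pair face each other across 9166 bases. C1R had 37 and 34 counts in Kyse150 shKDM2A libraries, against 7 and 5 counts in shNC libraries. It rose to 5.37 ± 0.0113 CPM in Kyse150 shKDM2A, against 0.843 ± 0.182 CPM in shNC (SD, n = 2 each; log2 fold change 2.65, SE 0.41). C1R, like C1S, reached the filter on low counts in Kyse150 through the shKDM2A libraries alone, so no p is given there. In TE11, C1R had 7 and 11 counts in the libraries labelled shKDM2A, against 1231, 1238 and 1383 counts in shNC libraries. It stood at 1.07 ± 0.299 CPM in the labelled shKDM2A libraries (SD, n = 2) and 115 ± 3.99 CPM in shNC libraries (SD, n = 3; log2 fold change -6.74, SE 0.16; edgeR adjusted p = 1.82e-34). In both lines all libraries of the 2 groups lay apart. C1R shares 11.4% of its exon bases with C1RL, which lies on the same strand, so reads there may be lost or split.

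The ratio of C1S to C1R counts was 2.27 and 2.85 in the Kyse150 shKDM2A libraries and 1 to 1.6 in Kyse150 shNC libraries. It was 0.909 to 1.14 in the libraries labelled TE11 shKDM2A and 1.76 to 2.01 in TE11 shNC libraries. The ratio was thus higher where both transcripts were high, although the low groups hold 5 to 11 counts of either gene per library. This difference in ratio was not tested.

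C3 (ENSG00000125730), the component that every activation route splits, lies on chromosome 19 from 6677704 to 6730562 on the reverse strand. C3 had 183 and 156 counts in Kyse150 shKDM2A libraries, against 38 and 41 counts in shNC libraries. It rose to 25.6 ± 1.41 CPM in Kyse150 shKDM2A, against 5.56 ± 0.412 CPM in shNC (SD, n = 2 each; log2 fold change 2.21, SE 0.19; edgeR adjusted p = 2.06e-10). In TE11, C3 had 26 and 28 counts in the libraries labelled shKDM2A, against 4248, 3996 and 4131 counts in shNC libraries. It stood at 3.21 ± 0.0563 CPM in the labelled shKDM2A libraries (SD, n = 2) and 369 ± 17.7 CPM in shNC libraries (SD, n = 3; log2 fold change -6.85, SE 0.12; edgeR adjusted p = 1.97e-40). No exon base of C3 is shared with another gene.

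**Figure D1:**
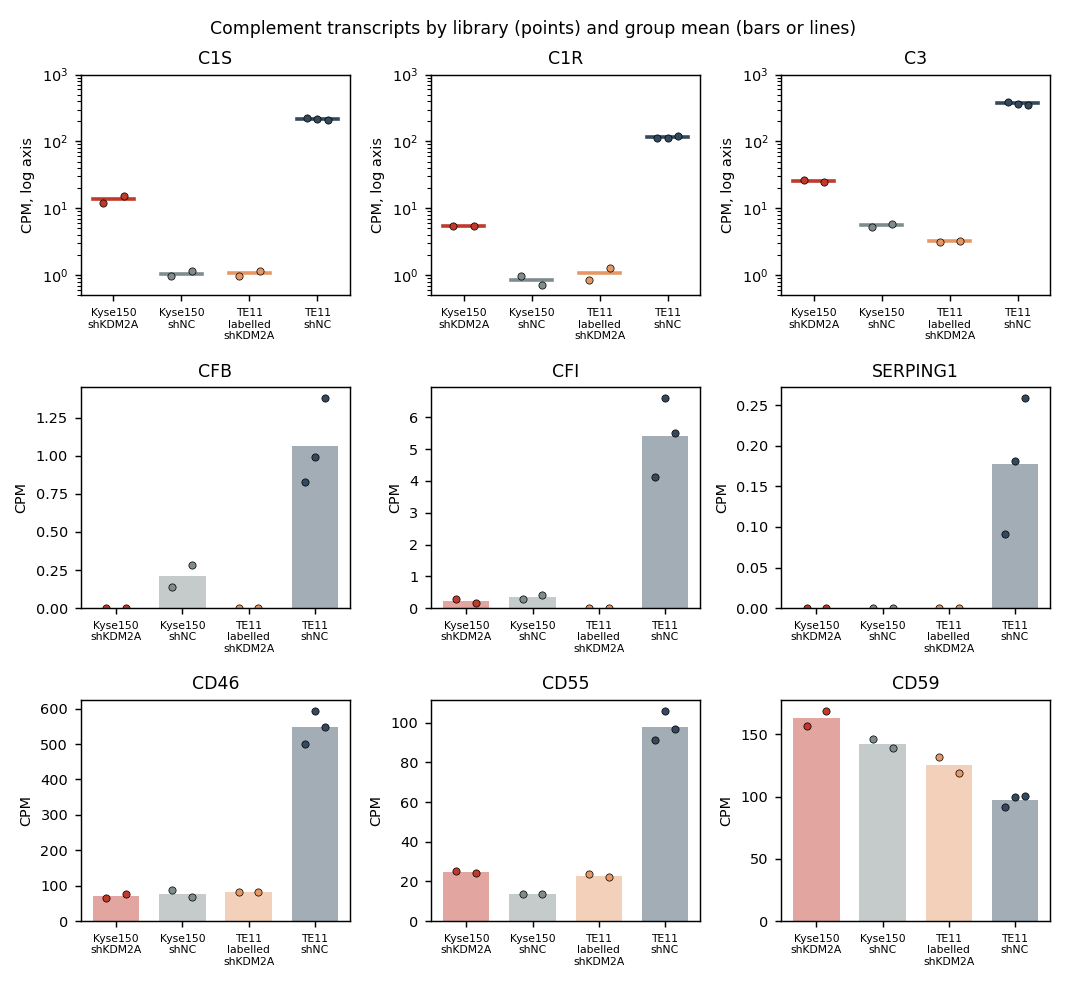
Level in CPM (y axis) of each of the 9 genes in every library (points) of the 4 groups (x axis), with group means as bars, or as lines on the log axes of C1S, C1R and C3. C1S, C1R and C3 are highest in TE11 shNC, next in Kyse150 shKDM2A, and low in Kyse150 shNC and in the libraries labelled TE11 shKDM2A, while CD59 is lowest in TE11 shNC at 97.1 CPM.

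Over the 4 groups the order of levels was the same for C1S, C1R and C3 at its upper end, with TE11 shNC highest and Kyse150 shKDM2A next. At the lower end the libraries labelled TE11 shKDM2A and the Kyse150 shNC libraries overlapped for C1S, at 0.976 and 1.16 CPM in the labelled libraries and 0.971 and 1.14 CPM in Kyse150 shNC. They overlapped for C1R as well, at 0.854 and 1.28 CPM in the labelled libraries and 0.971 and 0.714 CPM in Kyse150 shNC. For C3 they did not, at 3.17 and 3.25 CPM in the labelled libraries and 5.27 and 5.86 CPM in Kyse150 shNC. Per length, C3 led the secreted members at 44.3 ± 2.13 RPKM (CPM per kilobase of exon) in TE11 shNC, next to 33.7 ± 1.25 RPKM for C1S and 19.5 ± 0.678 RPKM for C1R (SD, n = 3).

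CFB, CFI and SERPING1 were scarce, with 0 to 3 counts per library outside TE11 shNC, where CFI reached 5.42 ± 1.24 CPM, CFB 1.07 ± 0.284 CPM and SERPING1 0.177 ± 0.0836 CPM (SD, n = 3). CFI (ENSG00000205403, chromosome 4 from 109740694 to 109802179, reverse strand) had 0 and 0 counts in the libraries labelled TE11 shKDM2A, against 45, 73 and 64 counts in TE11 shNC libraries. It was at least 30.4-fold lower there, against a floor of 3 counts over the labelled group. It reached the filter on low counts through TE11 shNC alone, so no p is given. In Kyse150, CFI had 2 and 1 counts in shKDM2A libraries, against 2 and 3 counts in shNC libraries, a ratio of 0.644 (95% counting interval 0.1 to 3.31), so no difference was detectable at this depth.

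CFB (ENSG00000243649, chromosome 6 from 31945650 to 31952084, forward strand) had 0 and 0 counts in the libraries labelled TE11 shKDM2A, against 9, 11 and 16 counts in TE11 shNC libraries. It was at least 6.01-fold lower there on the same floor, and like CFI it reached the filter through TE11 shNC alone. CFB had 0 and 0 counts in Kyse150 shKDM2A libraries, against 1 and 2 counts in Kyse150 shNC libraries, too few for a fold. Of CFB exon bases 45% are shared with a read-through gene from C2 into CFB (ENSG00000244255), which both tables list at 0 counts, so CFB may be undercounted. A read-through gene likewise shares 32% of CFI exon bases and has 0 counts in the TE11 table. The Kyse150 table does not list it, so CFI may be undercounted in TE11 alone, which bears on CFI values set between tables.

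SERPING1 (ENSG00000149131, chromosome 11 from 57597387 to 57614853, forward strand) had 0 and 0 counts in the libraries labelled TE11 shKDM2A, against 1, 2 and 3 counts in TE11 shNC libraries. It had 0 counts in all 4 Kyse150 libraries, which allows up to 0.227 CPM in shKDM2A and 0.211 CPM in shNC. The inhibitor of C1R and C1S was thus near 0 also in TE11 shNC libraries, where C1R and C1S were highest. Floors and counting intervals cover counting error only.

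Per length, the membrane regulators were the most abundant members in the 3 groups other than TE11 shNC, and the 3 genes differed in direction. CD55 (ENSG00000196352, chromosome 1 from 207321376 to 207386804, forward strand) had 25.3 and 24.3 CPM in Kyse150 shKDM2A libraries, against 13.5 and 13.6 CPM in shNC libraries. It rose 1.84-fold (log2 0.88, SE 0.16; edgeR adjusted p = 3.9e-05). In TE11, CD55 had 23.5 and 22.3 CPM in the libraries labelled shKDM2A, against 91.3, 106 and 96.7 CPM in shNC libraries (log2 fold change -2.11, SE 0.10; edgeR adjusted p = 5.95e-24). CD55 thus took the same directions as C1R and C3, with no overlap of groups in either line, by smaller folds.

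CD46 (ENSG00000117335, chromosome 1 from 207752057 to 207795513, forward strand) had 65.4 and 77.4 CPM in Kyse150 shKDM2A libraries, against 86.5 and 66.8 CPM in shNC libraries. The groups overlapped (log2 fold change -0.10, SE 0.10; 95% interval -0.30 to 0.11; edgeR adjusted p = 0.462). Without shNC replicate 2 the value was -0.28 and passed the test (edgeR adjusted p = 0.03; 0.03 to 0.924 over the alternatives). In TE11, CD46 had 82.5 and 81.6 CPM in the libraries labelled shKDM2A, against 499, 594 and 548 CPM in shNC libraries (log2 fold change -2.75, SE 0.07; edgeR adjusted p = 8.08e-33).

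CD59 (ENSG00000085063, chromosome 11 from 33703010 to 33736491, reverse strand) was the only tested member higher in the knockdown-labelled libraries of both lines, and only slightly. CD59 had 157 and 169 CPM in Kyse150 shKDM2A libraries, against 146 and 139 CPM in shNC libraries (log2 fold change 0.20, SE 0.07; edgeR adjusted p = 0.0178). That call was lost in DESeq2 (adjusted p = 0.0948), without shKDM2A replicate 2 (edgeR adjusted p = 0.172) and without shNC replicate 2 (0.142; 0.00172 to 0.172 over the alternatives). In TE11, CD59 had 132 and 119 CPM in the libraries labelled shKDM2A, against 91.5, 99.7 and 100.2 CPM in shNC libraries (log2 fold change 0.35, SE 0.07; edgeR adjusted p = 3.41e-05).

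Per length, the order of the regulators differed between the groups. CD59 stood above CD46 in Kyse150 shKDM2A libraries, at 15.7 ± 0.793 RPKM for CD59 and 8.2 ± 0.976 RPKM for CD46, and in Kyse150 shNC libraries, at 13.7 ± 0.499 and 8.8 ± 1.59 RPKM (SD, n = 2 each). It did so too in the libraries labelled TE11 shKDM2A, at 12.1 ± 0.893 RPKM for CD59 and 9.42 ± 0.0676 RPKM for CD46 (SD, n = 2). In TE11 shNC libraries CD46 stood first at 62.8 ± 5.43 RPKM and CD59 last at 9.38 ± 0.473 RPKM, with CD55 at 16.6 ± 1.26 RPKM (SD, n = 3). These orders were not tested, and they rest on the summed exon length of each gene.

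Counted over the list, 6 of the 9 members passed the filter on low counts in Kyse150, C1R and C1S through the shKDM2A group alone, and beside C1S 4 were called higher (C1R, C3, CD55, CD59) and 0 lower (edgeR adjusted p under 0.05). Of all 14060 genes tested, 48.2% were called, 24.8% higher and 23.3% lower. In TE11, 8 of 9 passed, CFB and CFI through the shNC group alone, and beside C1S 6 were called lower and 1 higher, where 78.1% of 16453 genes were called, 42.2% lower and 35.9% higher. C1S chose the list in these comparisons, and members that passed through 1 group alone had to differ, so nothing is read from the counts.

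**Figure D2:**
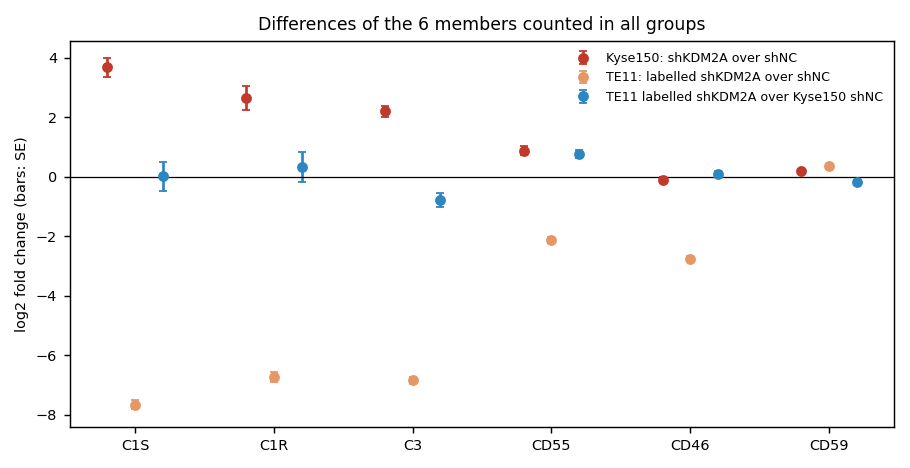
Log2 fold change (y axis, bars showing SE) of the 6 members counted in all groups (x axis), for Kyse150 shKDM2A over shNC, the libraries labelled TE11 shKDM2A over TE11 shNC, and the libraries labelled TE11 shKDM2A over Kyse150 shNC. C1S, C1R, C3 and CD55 lie above 0 in the first comparison and below 0 in the second, and C1S, C1R and CD46 lie near 0 in the third.

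The difference between the responses of the 2 lines, as labelled, was tested itself in 1 fit of all 9 libraries. For TE11, a response here is only a difference between libraries as labelled, as KDM2A was not lower in those labelled shKDM2A. The difference was taken as the TE11 fold change minus the Kyse150 fold change. It was -9.37 (log2, SE 0.42; edgeR adjusted p = 1.46e-28) for C1R and -9.04 (SE 0.21; edgeR adjusted p = 7.2e-44) for C3. It was -2.97 (SE 0.17; edgeR adjusted p = 4.68e-23) for CD55 and -2.63 (SE 0.13; edgeR adjusted p = 5.81e-18) for CD46. For CD59 it was 0.17 (SE 0.10; 95% interval -0.03 to 0.38; edgeR adjusted p = 0.139). C1R, C3, CD55 and CD46 were thus called lower, 4 of the 5 members tested beside C1S and CFI. Of 15895 genes 66.9% were called, 33.8% higher and 33.1% lower. C1R did not reach the joint filter through Kyse150 shNC. The opposite directions of C1S in the 2 tables chose the list, so nothing is read from this count. CFI reached the joint filter through TE11 shNC alone and is not counted. For C1S the difference of -11.33 is a description.

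The remaining comparisons set groups of different tables side by side. Both tables hold raw counts, but their gene annotations differ, and the effect of that on levels was not measured. TE11 shNC libraries had more of most members than Kyse150 shNC libraries: C1R was higher by 7.06 (log2, SE 0.18) and C3 by 6.05 (SE 0.11; edgeR adjusted p = 4.84e-50). C1R reached the filter through TE11 shNC and not Kyse150 shNC, so no p is given for it. CD46 was higher by 2.83 (SE 0.09; edgeR adjusted p = 1.91e-24) and CD55 by 2.86 (SE 0.11; edgeR adjusted p = 2.88e-32). CFI had 182 counts over TE11 shNC and 5 over Kyse150 shNC, a ratio of 15.4 (95% counting interval 6.48 to 48). CD59 ran the other way, at 0.683 of the Kyse150 shNC level (log2 -0.55, SE 0.07; edgeR adjusted p = 2.57e-10). CD59 shares 6.07% of its exon bases with a gene on the same strand that the TE11 table lists at 0 counts and the Kyse150 table does not list. Reads there may be lost in TE11 alone, in this and the next comparison, which was not tested. C1S stood 204-fold higher. Of the 4 members that reached the filter through both groups, 3 were called higher and 1 lower. C1S, C1R and CFI reached it through TE11 shNC and not Kyse150 shNC, and are not counted. Of 15895 genes 79.7% were called, 43.7% higher and 36% lower, and the median gene was higher by 0.12.

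The libraries labelled TE11 shKDM2A were compared with the Kyse150 shNC libraries in the same fit. C1S stood at 1.01 of the Kyse150 shNC level (log2 0.02, SE 0.48; 95% interval -0.93 to 0.97). C1R differed by 0.34 (log2, SE 0.51; 95% interval -0.67 to 1.34; edgeR adjusted p = 0.625) and CD46 by 0.10 (SE 0.10; 95% interval -0.10 to 0.29; edgeR adjusted p = 0.441), which does not show that they are equal. CD46 was called higher without Kyse150 shNC replicate 1 (0.30; edgeR adjusted p = 0.02; 0.02 to 0.968 over the alternatives). CD55 was higher in the labelled libraries by 0.76 (SE 0.14; edgeR adjusted p = 5.89e-06).

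C3 was lower in the labelled libraries, at 0.579 of the Kyse150 shNC level (log2 -0.79, SE 0.24; edgeR adjusted p = 0.00436), and the call was lost without Kyse150 shNC replicate 2 (-0.70; edgeR adjusted p = 0.0538; 0.00121 to 0.0538 over the alternatives). CD59 stood at 0.881 of Kyse150 shNC (edgeR adjusted p = 0.0403; 0.00114 to 0.569 over the alternatives), a call lost without either Kyse150 shNC library, without labelled replicate 2, with no filter (0.111) and with the replicate block (0.569). CFI had 0 counts in the labelled libraries and 5 in Kyse150 shNC. With those 5 taken as exact, that is 1.97-fold above a floor of 3 counts over the labelled group, which is no bound on the difference. CFI reached the filter through neither of these groups, so it is not counted. Beside C1S and CFI 1 member was called higher and 2 lower, where 53.6% of 15895 genes were called, 29.1% higher and 24.5% lower.

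C3 and C1R were the genes whose pattern over the 9 libraries lay nearest to that of C1S. Likeness was measured as the mean absolute difference of log2(CPM + 1) after the mean of the 4 groups was subtracted, over 11246 genes with a symbol and a mean of 5 CPM or more. C3 ranked 1 with a mean difference of 0.30 and C1R ranked 2 with 0.47. LCN2, a siderophore-binding protein of innate defence, followed with 0.52, then KRT7-AS and LY6D, a membrane-anchored surface protein of keratinocytes, with 0.58 each. KRT7-AS is antisense to KRT7, and whether counting used strand is not stated here, so its counts are uncertain.

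The other members ranked far lower, CD55 at 562, CD46 at 569 and CD59 at 6218. LCN2 had a mean of 2.11 CPM in Kyse150 shKDM2A and 0.212 CPM in Kyse150 shNC, and of 0.296 CPM in the libraries labelled TE11 shKDM2A and 78.5 CPM in TE11 shNC. LY6D had a mean of 1.57 CPM in Kyse150 shKDM2A and 0.28 CPM in Kyse150 shNC, and of 0.241 CPM in the labelled TE11 libraries and 80.5 CPM in TE11 shNC. The likeness rests on 4 groups of libraries and is a description.

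**Figure D3:**
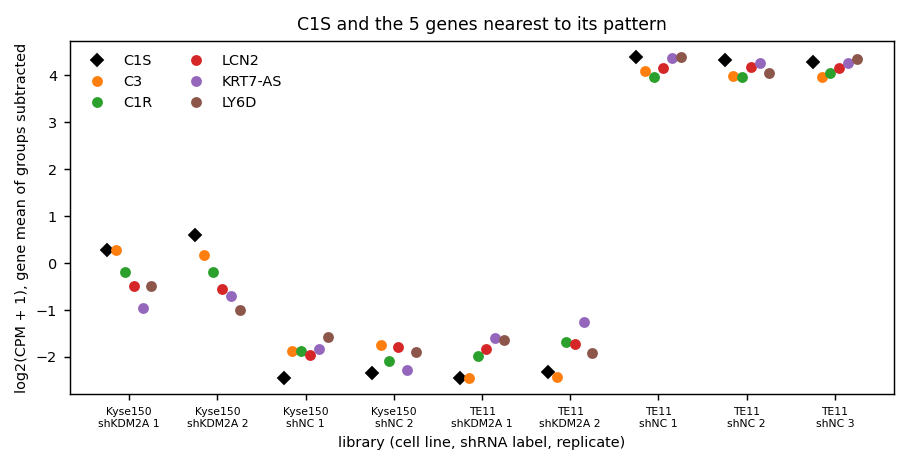
Log2(CPM + 1) with the mean of the 4 groups subtracted (y axis) in each library (x axis) for C1S (diamonds) and the 5 genes nearest to its pattern (circles). All 6 are highest in the 3 TE11 shNC libraries, and the 2 Kyse150 shKDM2A libraries stand above the Kyse150 shNC libraries for each.

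Of 54 other complement genes, 16 had 0 counts in all 9 libraries, among them the 3 chains of C1q, the recognition subunit that holds C1R and C1S, and the terminal components C6, C7, C8A and C8B. In Kyse150, 8 could be tested, of which 4 were called higher and 1 lower, where 24.8% of all genes were called higher and 23.3% lower. C5AR1 reached the filter through shKDM2A alone, and without it 3 of 7 were called higher and 1 lower. C1RL, a C1R-like protease, had 56.4 and 56.3 CPM in shKDM2A libraries, against 27.1 and 25.1 CPM in shNC libraries (log2 1.12, SE 0.11; edgeR adjusted p = 3.52e-09). THBD, thrombomodulin, a membrane protein that restrains coagulation and complement, rose 2.03-fold (log2 1.02, SE 0.24; edgeR adjusted p = 0.000859). CLU, a fluid-phase inhibitor of the terminal pathway, rose 1.31-fold (log2 0.39, SE 0.06; edgeR adjusted p = 1.2e-05).

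C1QBP, a mainly mitochondrial protein that binds C1q, fell to 0.757 of control (log2 -0.40, SE 0.05; edgeR adjusted p = 3.79e-07). The remaining call was C5AR1, the receptor for a fragment of C5, named after its values were seen, with 25 counts in shKDM2A and 5 in shNC libraries (log2 2.37, SE 0.65). As C5AR1 reached the filter through shKDM2A alone, no p is given. The genes that did not pass were C2, CFD and ITGB2.

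In TE11, 16 of the 54 could be tested, but 8 of them reached the filter through shNC alone and could then only come out lower. Of the other 8, 5 were called lower and 2 higher, where 42.2% of all genes were called lower and 35.9% higher. THBD fell to 0.218 of control (SE of log2 0.15; edgeR adjusted p = 1.47e-17) and C1RL to 0.349 (SE of log2 0.11; edgeR adjusted p = 1.58e-16). C1QBP was 1.93-fold higher (log2 0.95, SE 0.06; edgeR adjusted p = 1.03e-19). The second gene called higher was ITGB2, a subunit of leukocyte complement receptors, named after its values were seen (log2 2.37, SE 0.31; edgeR adjusted p = 3.2e-09).

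C4A and C4B, which encode the component that C1S cleaves, are near-identical copies whose split of reads is uncertain. Both stood low in the labelled libraries. Both reached the filter through TE11 shNC alone. C4A had 0.232 ± 0.329 CPM in the libraries labelled TE11 shKDM2A (SD, n = 2) and 4.76 ± 0.963 CPM in TE11 shNC (SD, n = 3). C4B had 0 counts over the labelled libraries and 171 over TE11 shNC. C2, the other substrate of C1S, had 5.66 ± 3.56 CPM in the labelled libraries (SD, n = 2) and 7.08 ± 0.863 CPM in TE11 shNC (SD, n = 3; log2 -0.35, SE 0.24; edgeR adjusted p = 0.187). These 3 genes were chosen here for their place beside C1S.

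**Figure D4:**
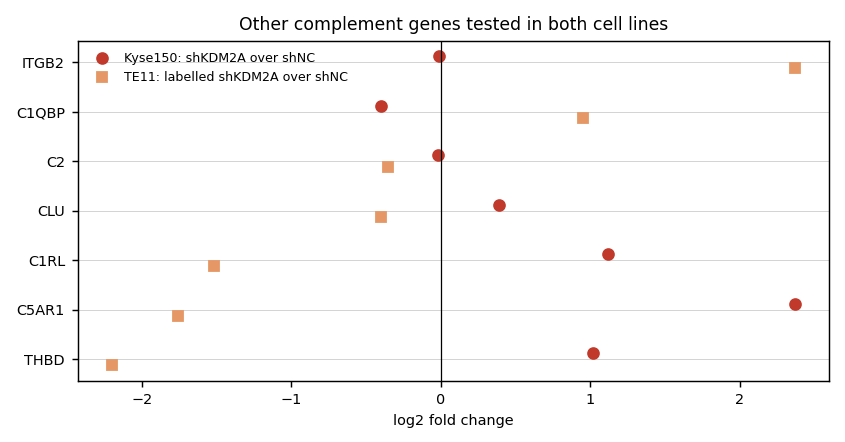
Log2 fold change (x axis) of the 7 other complement genes tested in both lines (y axis), in Kyse150 shKDM2A over shNC (circles) and in the libraries labelled TE11 shKDM2A over shNC (squares). C1RL, THBD and CLU have circles right of 0 and squares left of it, and C1QBP has them the other way round. C5AR1 also has its circle right and its square left. It reached the filter through shKDM2A alone in Kyse150 and through shNC alone in TE11, so its sides were fixed.

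Transcription factors known to act on complement genes were listed as well. In Kyse150, 8 of 12 tested were called higher and 0 lower, where 24.8% of all genes were called higher and 23.3% lower. Of the 12, 1 reached the filter through shKDM2A alone, and without it 7 of 11 were called higher and 0 lower. The median log2 fold change was 0.59 over the 12 and 0.58 over those 11, beside 0.002 over all genes. RELB, an NF-kB subunit, had 47.9 and 36.9 CPM in shKDM2A libraries, against 14 and 12.1 CPM in shNC libraries (log2 1.71, SE 0.15; edgeR adjusted p = 5.45e-10). NFKB2, its usual partner, rose 2.53-fold (SE of log2 0.08; edgeR adjusted p = 9.41e-14) and CEBPB, a factor of the acute-phase response, 2.32-fold (SE of log2 0.09; edgeR adjusted p = 3.97e-11).

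In TE11, 9 of 11 tested factors were called lower and 1 higher, where 42.2% of all genes were called lower and 35.9% higher, and all 11 reached the filter through both groups. Their median was -1.0, beside -0.09 over all genes. CEBPD, another acute-phase factor, had 12.1 and 13 CPM in the libraries labelled shKDM2A, against 116, 98.6 and 106 CPM in shNC libraries (log2 -3.10, SE 0.11; edgeR adjusted p = 1.88e-28). CEBPB fell to 0.176 of control (SE of log2 0.09; edgeR adjusted p = 8.03e-28) and the interferon-induced factor IRF1 to 0.17 (SE of log2 0.10; edgeR adjusted p = 3.03e-26). The factor called higher was RELA, an NF-kB subunit named after its values were seen (log2 0.17, SE 0.08; edgeR adjusted p = 0.0396).

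Markers of other cell types that make complement were counted in the same libraries. Hepatocyte markers were at or near 0, with a summed level of at most 0.69 CPM over 10 genes in any library and ALB at 0 in all groups. Leukocyte markers summed over 11 genes to 4.94 to 5.04 CPM in Kyse150 shKDM2A and 3 to 3.05 CPM in shNC, and to 2.07 to 3.48 CPM in the labelled TE11 libraries and 3.53 to 4.03 CPM in TE11 shNC, with PTPRC at 0 in all groups. Of these, 1 was tested in Kyse150 and called higher, and 2 were tested in TE11, of which 1 was called lower. The gene tested in Kyse150, CSF1R, had 17 counts over shNC and 44 over shKDM2A, and reached the filter through shKDM2A alone. The gene called lower in TE11, ITGAM, reached it through shNC alone, so nothing is read from these calls. Fibroblast markers summed to 10.7 to 11.6 CPM over 10 genes in Kyse150 shKDM2A and 6.25 to 6.57 CPM in shNC. In TE11 they summed to 2.93 to 4.07 CPM in the labelled shKDM2A libraries and 28.9 to 31.4 CPM in shNC. Of these, 1 was tested in Kyse150 and called higher, and 4 were tested in TE11 and called lower, while DCN was at 0 in the groups other than TE11 shNC. Of all genes, 24.8% were called higher in Kyse150 and 42.2% lower in TE11. FAP and COL3A1 had 0 counts and PDGFRB 2 over the labelled TE11 libraries. These genes reached the filter through TE11 shNC alone and could then only come out lower. COL1A1 made up most of these sums, at 10.7 CPM in Kyse150 shKDM2A and 6.27 CPM in shNC, and at 3.08 CPM in the labelled TE11 libraries and 16.6 CPM in TE11 shNC.

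Endothelial markers, of which 7 of 8 are listed in both tables, summed to 38.9 to 39.2 CPM in Kyse150 shKDM2A and 16 to 20.6 CPM in shNC. They summed to 13.2 to 13.5 CPM in the labelled TE11 libraries and 70.6 to 79 CPM in TE11 shNC. EGFL7 carried these sums, at 35.4 CPM in Kyse150 shKDM2A and 15.5 CPM in shNC, and at 11.7 CPM in the labelled TE11 libraries and 65.2 CPM in TE11 shNC, while KDR was at 0 in Kyse150. Of these markers, 2 were tested in Kyse150 and called higher, and 4 were tested in TE11 and called lower. KDR had 1 count and VWF 7 over the labelled TE11 libraries, and ESAM had 9 over Kyse150 shNC. These genes reached the filter through the other group alone, so their direction was fixed. COL1A1 and EGFL7, which carried their sums, lay on the same sides of their controls as C1R and C3 in both lines. Not every marker counted in all 4 groups did. CDH5 had 0.618 CPM in Kyse150 shKDM2A and 0.922 CPM in shNC, and 0.947 CPM in the labelled TE11 libraries and 3.51 CPM in TE11 shNC. CD68 lay on the other side in both lines, at 0.691 and 0.843 CPM in Kyse150 and 0.714 and 0.152 CPM in TE11 (shKDM2A label first). Both rest on few counts. Nothing is read from the number of markers called, and the part of other cell types in the results for C1R and C3 was not tested. Squamous markers summed to 2499 to 2566 CPM in Kyse150 shKDM2A and 2604 to 2709 CPM in shNC, and to 2679 to 2731 CPM in the labelled TE11 libraries and 5845 to 6318 CPM in TE11 shNC. All 10 squamous markers were tested, of which 5 were called higher and 3 lower in Kyse150, and 2 higher and 8 lower in TE11. Of all genes, 24.8% were called higher and 23.3% lower in Kyse150, and 35.9% higher and 42.2% lower in TE11.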

How the data were processed

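Gene counts from 9 libraries were analysed, grouped by sample title. The deposited values are raw counts of fragments per gene, 1 table per cell line, with 57820 genes for Kyse150 and 60683 for TE11. Per the submitters' processing notes, the tools included HISAT2 2.1.0 and HTSeq 0.9.1, and GRCh37.p13 and GRCh38.p13 are both listed as genome builds, not tied to a table. How strand was treated is not given in the sources used. HTSeq's summary rows, left out of all totals, put 42.28% to 44.53% of each library outside genes and 1.846% to 2.724% as ambiguous. Identifiers were matched to symbols through a table of gene names and GENCODE 29 (52338 of the Kyse150 and 60659 of the TE11 identifiers).

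After filterByExpr (at least 10 counts, total of 15), TMM factors were set and edgeR 4.0.16 in R 4.3.3 fitted a robust quasi-likelihood model of group, in each table alone for the shRNA comparisons and over all 9 libraries for the others, with Benjamini-Hochberg adjustment over all genes and a threshold of 0.05. A gene was said to reach the filter through a group where at least 1 of its libraries had the filter's CPM floor, 10 counts at the median library size. The SE is the absolute log2 fold change over the root of the F statistic, and 95% intervals are 1.96 SE either way. CPM uses the scaled sizes of the joint fit. Genes at 0 in a group were given a bound against 3 counts over that group, with the counts of the other group taken as exact. Named genes were KDM2A, the members, and in each table the 4 other complement genes and 3 transcription factors with the smallest p, and the 5 genes nearest to C1S. A gene that this rule names is not reported here. The members, lists and rules were chosen with earlier results of these data known. The fits were tested on simulated data. Alternatives were DESeq2 1.42.0, other scalings and filters, a replicate block and each library left out. No replicate pair looked like 1 library deposited again (chi-square over its degrees of freedom 1.62 to 4.91).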

Additional observations from a re-analysis of the deposited data

Results flagged for a closer look

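The difference between the TE11 and Kyse150 responses, as labelled, passed its own test in 1 fit of all libraries for several of the named genes (edgeR adjusted p under 0.05, where 66.9% of all genes passed). Among the members it was -9.37 for C1R, -9.04 for C3, -2.97 for CD55 and -2.63 for CD46 on the log2 scale, while CFI, with an adjusted p of 0.000683, reached the filter on low counts through TE11 shNC alone, so its p supports nothing. For C1S it was -11.33, with all libraries of the 2 lines apart in opposite directions, and was not tested because this contrast chose the list. Among other complement genes it was -3.19 for THBD, -2.61 for C1RL, -0.76 for CLU and 1.38 for C1QBP. Among transcription factors it was -3.78 for CEBPD, -3.69 for CEBPB, -2.93 for IRF1, -2.64 for RELB and -2.34 for NFKB2.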

How the results depend on the processing

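C1R, C3 and CD55 kept their direction and call in both lines under each alternative run, with log2 fold changes of 2.45 to 2.88, 2.13 to 2.28 and 0.85 to 0.93 in Kyse150, and -7.06 to -6.48, -6.91 to -6.82 and -2.17 to -2.07 in TE11. The Kyse150 value of C1R is a description, as C1R reached the filter there through shKDM2A alone. C1S ranged from 3.51 to 3.84 and from -7.79 to -7.54. The scalings moved the median of all genes in TE11 between -0.150 and -0.059, and no member's call with it. In Kyse150 DESeq2 called 4337 genes, against 6771 in edgeR. Library totals without scaling split the Kyse150 calls into 3868 higher and 2818 lower. KDM2A in TE11 lost its call in DESeq2 (0.15), with no filter (0.16), with upper quartile scaling (0.10) and with the replicate block (0.17), and ranged from 0.10 to 0.24 with 1 library left out. Between the libraries labelled TE11 shKDM2A and Kyse150 shNC, 53.6% of all genes were called. There 4 members were called, with CFI among them although it reached the filter through neither group. With 1 library left out 1 to 4 were called (1 without Kyse150 shNC replicate 2, 2 without labelled replicate 2). With the replicate block 2 were called, and CFI lost its call (0.0668). In that comparison the block called 1 other complement gene, against 4 of 16 tested in the main fit, and 5325 genes instead of 8516. The block left the other counts within 1.5 times. The difference between responses called 10 of 16 other complement genes tested, where 66.9% of all genes were called, so nothing is read from that count. Only 6 of the 16 reached the filter through all 4 groups, of which 2 were called higher and 3 lower. With 1 library left out, 6 to 10 were called (6 without Kyse150 shKDM2A replicate 1). The median of this difference over all genes was -0.181 with upper quartile scaling. It was -0.492 with no filter (-0.457 for TE11), where more genes were tested. The causes were not tested. The labels tie no replicate number to a batch. Deviations of same-numbered Kyse150 libraries correlated at -0.147, and crossing the numbers in the block called 7370 genes against 6395 with the numbers as given. In TE11 the correlations were 0.00142 and -0.0165, and the block called 12218 genes against 12845. Depth limits CFB, CFI and SERPING1, which hold 0 to 3 counts per library outside TE11 shNC.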
